A study of Oryza sativa with 16 samples.

Results

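In rice leaves, 131 of 57194 probe sets were higher in an aromatic bulk than in a non-aromatic bulk but lower in the aromatic parent than in the non-aromatic parent, or the other way round. These reversed probe sets differed at least 2-fold in group mean intensity in both pairs, in opposite directions. The higher mean of each pair was above 200, and the 4 arrays of one group all lay above the 4 arrays of the other. Of the 131, 73 were high in the aromatic bulk and low in Pusa 1121, and 58 were low in the aromatic bulk and high in Pusa 1121. The members were thus chosen by the group means and array values of both pairs, which are given below as a description, with no test of either pair.

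The 4 groups came from 1 cross-derived population and its parents. The aromatic bulk pooled 6 recombinant inbred lines at the aromatic extreme of a sensory score, and the non-aromatic bulk pooled 6 lines at the other extreme. Pusa 1121, a basmati-type variety, was the aromatic parent, and Pusa 1342 was the non-aromatic parent. Each group had 4 arrays, 16 in all, labelled as biological replicates. The labels do not say whether these were separate plants or plots, so p-values measure only the spread between these arrays. All plants were untreated and field-grown, and leaves were taken 25 days after transplanting of the seedlings.

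A recombinant inbred line carries a fixed mosaic of both parents' chromosomes. A bulk selected for one trait is enriched for the parental alleles behind that trait, while elsewhere each bulk can hold either parent's allele. In an array of pooled leaf RNA, the value of a bulk is an average over its lines, and fewer cells of a type cannot be told apart from less RNA per cell. The aroma of rice itself is attributed mainly to a volatile pyrroline compound that builds up where the betaine aldehyde dehydrogenase gene BADH2 is not functional.

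Intensities were linear, with the same median (64.2) and upper quartile (434) on every array, so a general shift of 1 group would not be seen. Correlations between arrays were 0.9137 to 0.9338 within groups and 0.882 to 0.9064 between groups. The summed intensity of 4 leaf marker genes was 104487 to 108859 in the aromatic bulk, 107240 to 112887 in the non-aromatic bulk, 107895 to 113858 in Pusa 1121 and 98480 to 104438 in Pusa 1342. Of the leaf markers 1 had a mean under 50 over all arrays. Of the 17 floral or meristem markers, 8 had such a mean. Their summed intensity was 5211 to 5565 in the aromatic against 15302 to 17265 in the non-aromatic bulk, and 5771 to 6380 in Pusa 1121 against 14069 to 15248 in Pusa 1342. Senescence markers NYC1 and SGR summed to 4660 to 5416 in the aromatic against 7321 to 8206 in the non-aromatic bulk, and to 5057 to 6394 in Pusa 1121 against 6529 to 7696 in Pusa 1342. Single markers did not all follow these sums. SGR averaged 2033 in the aromatic against 4593 in the non-aromatic bulk, and 1016 in Pusa 1121 against 3928 in Pusa 1342, while NYC1 averaged 2898 against 2989 in the bulks and 4514 against 3122 in the parents. MADS14 led the floral sum (251.5 against 8141 in the bulks, 375.1 against 4125 in the parents), and MADS5 ran the other way (164.8 against 61.13, and 435.4 against 31.88). The leaf sums overlapped between the bulks and did not overlap between the parents. The 2 root markers summed to 5123 to 5281 in the aromatic against 4220 to 4611 in the non-aromatic bulk, and to 5378 to 5675 in Pusa 1121 against 3388 to 3858 in Pusa 1342. They ran opposite to each other. HAK1 averaged 3744 against 1927 in the bulks and 4500 against 2041 in the parents, and Lsi1 1474 against 2514 and 1037 against 1499. The 10 seed markers summed to 3025 to 3303 in the aromatic against 3093 to 3450 in the non-aromatic bulk, and to 4499 to 5038 in Pusa 1121 against 3709 to 4200.2 in Pusa 1342, so that all bulk arrays lay below all parental ones. Of these 10, 4 had a mean under 50 over all arrays. RAL1 followed the sum (1045 against 1461 in the bulks, 2456 against 2169 in the parents). WX1 was higher in the bulks (544.2 against 425.6) than in the parents (331.9 against 71.77). The part of these markers in the results was not tested.

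Reversal was the less frequent pattern among probe sets that differed in both pairs. Non-overlap of the 4 arrays alone was met by 23.4% of probe sets in the bulks and by 30.1% in the parents. The criteria for size, level and non-overlap were met by 1831 probe sets in the bulks (3.2% of those measured) and by 4247 in the parents (7.43%). Both were met in the same direction by 664 probe sets (1.16%) and in opposite directions by the 131 (0.229%). Reversed probe sets were thus 16.5% of the 795 that met the criteria in both pairs. The same-direction probe sets divided into 300 higher on both aromatic sides and 364 lower on both.

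**Figure D1:**
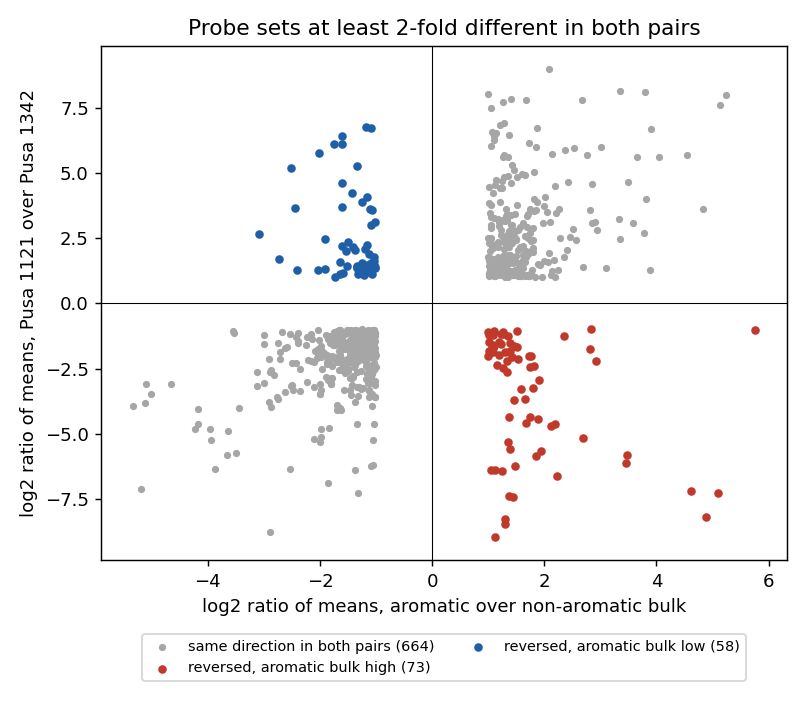
Log2 ratio of group means of the aromatic over the non-aromatic bulk (x axis) against that of Pusa 1121 over Pusa 1342 (y axis), 1 point per probe set that was at least 2-fold different in both pairs. The 73 reversed probe sets high in the aromatic bulk lie at the lower right, the 58 low in it at the upper left, and the 664 same-direction probe sets are grey.

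The parental difference was usually the larger one. Among the 73 probe sets high in the aromatic bulk, the median ratio was 2.63-fold between the bulks and 4.69-fold between the parents, and the largest ratios were 54.4-fold and 496-fold. Among the 58 low in the aromatic bulk, the medians were 2.50-fold between the bulks and 3.37-fold between the parents, and the largest ratios 8.49-fold and 107-fold. The log2 difference was larger in the parents for 107 of 131 reversed probe sets (81.7%) and for 485 of 664 same-direction ones (73%).

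The rule itself put the aromatic bulk on the side of Pusa 1342 and the non-aromatic bulk on that of Pusa 1121, so this pairing is not a result. The rule also bore on how close the means lay, through the level and the 2-fold gap it required. The distances varied, and the counts below only describe the members, with no share over all probe sets beside them. In the class high in the aromatic bulk, the median of the group means was 739.9 for the aromatic and 228.7 for the non-aromatic bulk, 123.8 in Pusa 1121 and 1018 in Pusa 1342. There the aromatic bulk lay under 2-fold from Pusa 1342 in 55 of 73 probe sets, and the non-aromatic bulk under 2-fold from Pusa 1121 in 34. In the class low in the aromatic bulk, the corresponding medians were 253.3, 673, 564.4 and 133.5. There the non-aromatic bulk lay under 2-fold from Pusa 1121 in 42 of 58 probe sets, and the aromatic bulk under 2-fold from Pusa 1342 in 31.

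Both bulks lay between the parental means in 50 reversed probe sets (38.2%). A single bulk lay outside the parental range in 64 (48.9%), and both did in 17 (13%). Among same-direction probe sets the corresponding shares were 34.5%, 57.8% and 7.68%. Along the distance between the parents, counted from the lower parental mean, the aromatic bulk stood at a median of 68% and the non-aromatic bulk at 9.44% in the class high in the aromatic bulk. In the other class the medians were 13.8% for the aromatic bulk and 97.4% for the non-aromatic bulk.

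Most of the very dim means were parental. Of the reversed probe sets, 0 had an aromatic bulk mean under 50, and 4 did in the non-aromatic bulk, 23 in Pusa 1121 and 10 in Pusa 1342. No detection calls were used, so a ratio against such a mean depends on how dim values were estimated.

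**Figure D2:**
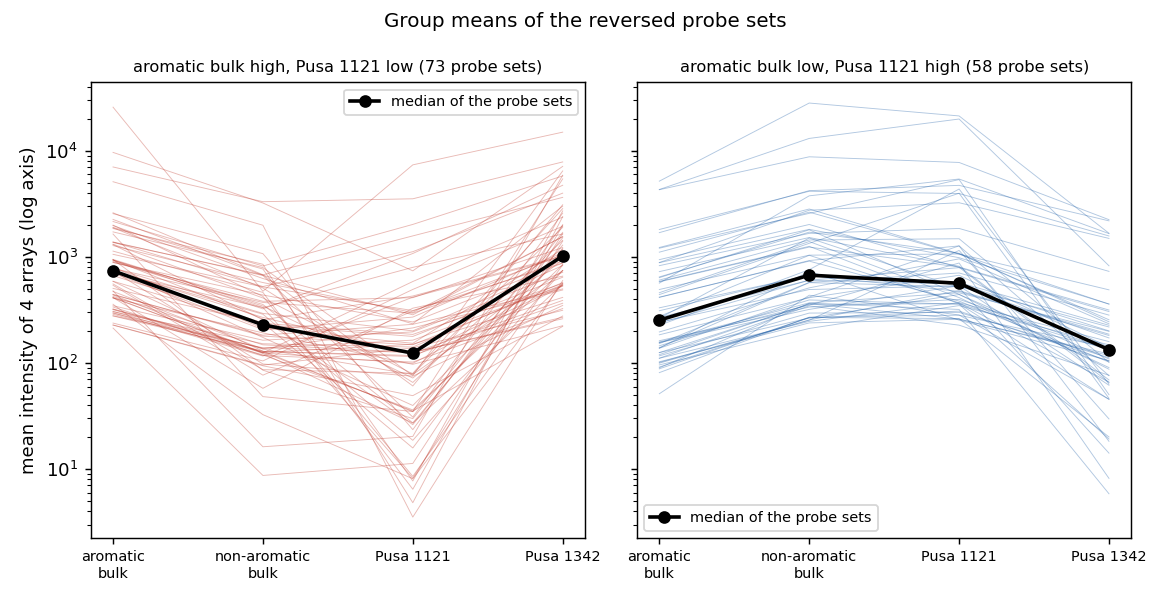
Mean intensity of 4 arrays (log axis) in the aromatic bulk, non-aromatic bulk, Pusa 1121 and Pusa 1342, 1 thin line per reversed probe set, with the median of the probe sets in black. The median runs 739.9, 228.7, 123.8 and 1018 in the 73 probe sets at the left, and 253.3, 673, 564.4 and 133.5 in the 58 at the right.

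The platform annotation gave 1 gene for 66 of the 131 probe sets and none for the other 65. That is 50.4% with a gene, against 39.2% of all probe sets and 66.1% of same-direction ones. The 66 probe sets stood for 63 genes, of which 59 are annotated as protein-coding, 2 as lncRNA and 2 as misc_RNA, and 12 carry a published name. Probe sets whose name marks cross-hybridising probes (ending in x_at) were 16% of the members, 12.5% of all probe sets and 13.9% of same-direction ones. Unique probe sets were 70.2% of the members against 80.1% of all and 71.5% of those with the higher mean of each pair above 200.

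The 12 named genes fall into signalling and regulatory genes, defence and stress genes, and genes of the cell wall, membrane and chloroplast. JAZ11, JAMYB and BURP2 were high in the aromatic bulk and low in Pusa 1121. The other 9, salT, BURP16, MAN7, FTSH6, Cht6, PIP2-2, Cht2, UGE-4 and CML16, were low in the aromatic bulk and high in Pusa 1121.

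JAZ11 (chromosome 3) encodes a JAZ protein, one of the repressors that hold back jasmonate-responsive transcription until the hormone triggers their degradation. Its intensity was 729, 824, 804 and 782 in the aromatic against 316, 239, 326 and 292 in the non-aromatic bulk. In the parents it was 194, 205, 201 and 203 in Pusa 1121 against 834, 858, 822 and 798 in Pusa 1342. The ratios were 2.68-fold and 4.13-fold in opposite directions, and the aromatic bulk stood at 93.1% of the distance from Pusa 1121 to Pusa 1342, the non-aromatic bulk at 14.8%. JAZ11 was the 1 reversed gene among 36 measured genes of jasmonate repressors and oxylipin synthesis, of which 2 others differed in the same direction in both pairs.

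JAMYB (chromosome 11) encodes a jasmonate-inducible MYB transcription factor. It read 485, 194, 293 and 319.6 in the aromatic against 132, 116, 105 and 161 in the non-aromatic bulk. It read 77.1, 134, 159 and 89.9 in Pusa 1121 against 608, 566, 528 and 451 in Pusa 1342. The lowest aromatic bulk array, 194, lay above the highest non-aromatic one, 161, while the parents were further apart.

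BURP2 (chromosome 5), a member of the plant-specific BURP-domain family, had the largest bulk ratio of all reversed probe sets and a parental ratio close to the 2-fold threshold. It read 27339.9, 25536, 25168 and 25168 in the aromatic against 627, 581, 379 and 312 in the non-aromatic bulk, a 54.4-fold ratio. It read 7049.9, 7861, 6786 and 7795 in Pusa 1121 against 14909, 14119.9, 15743 and 15218 in Pusa 1342, a 2.03-fold ratio the other way. Both bulks therefore lay outside the parental range, 1 above it and 1 below it. A further probe set for the gene gave means of 1680 for the aromatic and 164.1 for the non-aromatic bulk, 418.9 in Pusa 1121 and 740.9 in Pusa 1342, with the same signs and under 2-fold between the parents.

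The salt-induced lectin gene salT (chromosome 1), known for accumulating under salt and drought, was measured by 2 reversed probe sets. The first read 594, 735, 605 and 614 in the aromatic against 1833, 1815, 1846 and 1710.2 in the non-aromatic bulk, and 425, 432, 469 and 448 in Pusa 1121 against 109, 73.3, 84.1 and 83.1 in Pusa 1342. The second read 1295, 1154, 1308 and 1150.3 in the aromatic against 2699, 3084, 2762 and 2767 in the non-aromatic bulk, and 1052, 1144, 1038 and 1047 in Pusa 1121 against 285, 234, 246 and 256 in Pusa 1342. Both placed the non-aromatic bulk highest and Pusa 1342 lowest, with no overlap between any 2 neighbouring groups. In the list of 8 measured water-stress genes, salT was the 1 reversed gene.

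The chitinase genes Cht2 (chromosome 10) and Cht6 (chromosome 2), whose enzymes cleave the chitin of fungal cell walls, were both low in the aromatic bulk and high in Pusa 1121. Cht2 read 4352, 4177, 4321 and 4351 in the aromatic against 8934, 8869, 9189 and 8143 in the non-aromatic bulk, and 7809, 8086, 7413 and 7760.5 in Pusa 1121 against 2308, 2374, 2073 and 2219 in Pusa 1342. Cht6 read 598, 681, 368 and 682 in the aromatic against 1183, 1188, 1165 and 1412 in the non-aromatic bulk, and 1094, 696, 578 and 844 in Pusa 1121 against 318, 258, 329 and 356 in Pusa 1342. The reversed Cht2 probe set is of the kind shared between similar transcripts, and other probe sets of the gene differed from it. One gave means of 2050 for the aromatic and 8989 for the non-aromatic bulk, 3667 in Pusa 1121 and 4771 in Pusa 1342, lower in Pusa 1121 than in Pusa 1342. Another gave 3960, 5234, 6831 and 8.613 in the same group order, again reversed in sign but with a far larger parental difference. These 2 were the reversed genes among the 15 measured genes of the defence list.

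PIP2-2 (chromosome 2) encodes a plasma membrane aquaporin, a channel for water. It read 719, 1011, 979 and 197 in the aromatic against 1600.3, 1497, 1481 and 1517 in the non-aromatic bulk, and 926, 876, 725 and 738 in Pusa 1121 against 31.7, 111, 65.2 and 68.6 in Pusa 1342. The array at 197 stood below the other aromatic bulk arrays. A brighter probe set of the gene, shared between similar transcripts, had means of 15940 for the aromatic and 19970 for the non-aromatic bulk, 14870 in Pusa 1121 and 16740 in Pusa 1342, and so was not reversed. PIP2-2 was the 1 reversed gene of 30 measured aquaporin genes.

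The chloroplast protease gene FTSH6 (chromosome 6) read 541, 691, 566 and 553 in the aromatic against 1217, 1231, 1321 and 1264 in the non-aromatic bulk, and 399, 409.9, 343 and 295 in Pusa 1121 against 14.2, 77.6, 44.0 and 46.0 in Pusa 1342. This probe set is of the cross-hybridising kind. Another probe set of FTSH6 had the same signs but was under 2-fold different between the bulks. Its means were 617.4 for the aromatic and 1025 for the non-aromatic bulk, 355.6 in Pusa 1121 and 24.52 in Pusa 1342. BURP16 (chromosome 10), the second BURP-domain gene among the members, ran opposite to BURP2. It read 149, 108, 211 and 113 in the aromatic against 346, 453, 355 and 417 in the non-aromatic bulk, and 287, 397, 432 and 317 in Pusa 1121 against 11.5, 51.6, 5.96 and 7.69 in Pusa 1342. Its non-aromatic bulk and Pusa 1121 arrays overlapped.

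MAN7 (chromosome 11), named for a mannan-cleaving enzyme of the cell wall, read 115, 233, 79.1 and 126 in the aromatic against 776, 623, 731 and 794 in the non-aromatic bulk, and 301, 279, 184 and 249 in Pusa 1121 against 113, 93.6, 119 and 94.7 in Pusa 1342. UGE-4 (chromosome 9), whose enzyme interconverts UDP-glucose and UDP-galactose, read 355, 284, 323 and 362 in the aromatic against 765, 609.6, 708 and 598 in the non-aromatic bulk, and 468, 464, 468 and 490.1 in Pusa 1121 against 202, 169.6, 194 and 161 in Pusa 1342. MAN7 was among the 24 members whose log2 difference was larger between the bulks than between the parents. CML16 (chromosome 1), a calmodulin-like calcium sensor, read 760.4, 886, 869 and 791 in the aromatic against 1565, 1718, 1733 and 1649.9 in the non-aromatic bulk, and 1772, 2017, 1855 and 1774 in Pusa 1121 against 588, 817, 787 and 729 in Pusa 1342.

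**Figure D3:**
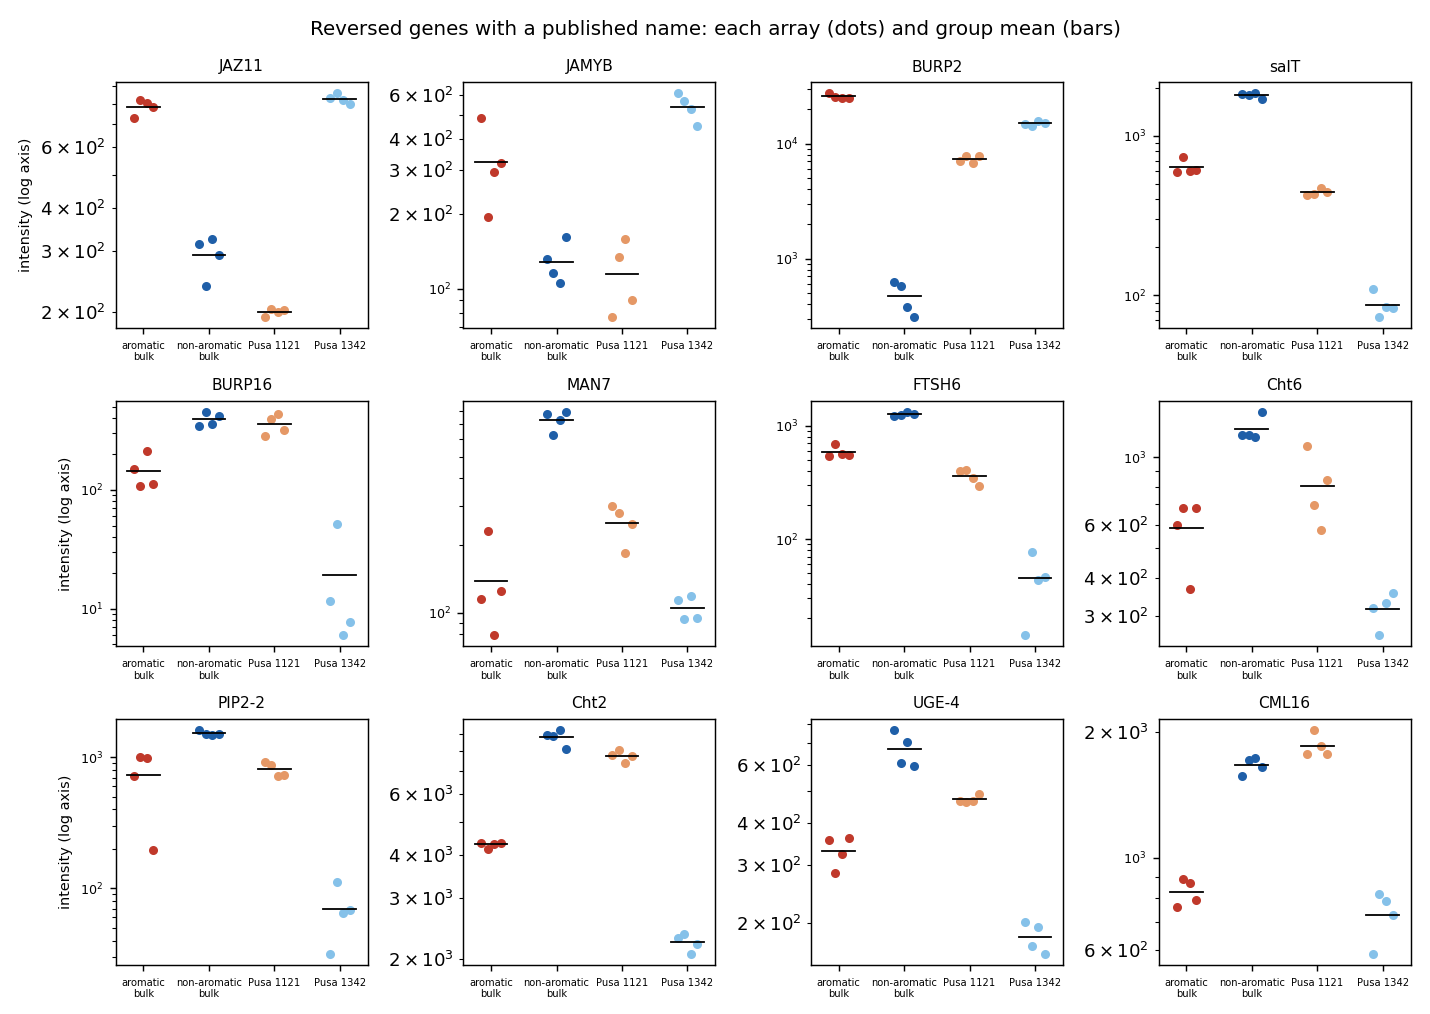
Intensity on each array (dots, log axis) and group mean (bars) of the 12 reversed genes with a published name, in the aromatic bulk, non-aromatic bulk, Pusa 1121 and Pusa 1342. JAZ11, JAMYB and BURP2 are high in the aromatic bulk and Pusa 1342, and the other 9 are high in the non-aromatic bulk and Pusa 1121. The salT panel shows the first of its 2 probe sets.

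Among probe sets with 1 gene, ranked by the smaller of the 2 log2 ratios, the leading 8 of each class have only a locus number and no role in the tables used here. LOC4334900 (chromosome 4) came first in the class high in the aromatic bulk, with 1543, 1801, 1464 and 1758 in the aromatic against 11.6, 78.8, 84.5 and 17.8 in the non-aromatic bulk. It had 55.7, 7.29, 36.4 and 40.02 in Pusa 1121 against 5212, 6004, 5381 and 5153 in Pusa 1342. The log2 ratios were 5.09 in the bulks and -7.28 in the parents, so the non-aromatic bulk and Pusa 1121 were both near the dim end of the scale.

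LOC4329821 (chromosome 2) and LOC4348034 (chromosome 10) had the same shape. LOC4329821 read 533, 466, 467 and 446 in the aromatic against 3.13, 23.0, 19.0 and 19.7 in the non-aromatic bulk, and 38.3, 2.37, 13.8 and 26.7 in Pusa 1121 against 7589, 4192, 6831 and 4927 in Pusa 1342. A second probe set of that gene, with means of 986.2 for the aromatic and 1293 for the non-aromatic bulk, 1259 in Pusa 1121 and 1322 in Pusa 1342, showed no such pattern. LOC4348034 read 209.5, 177, 259.9 and 207 in the aromatic against 1.94, 1.90, 2.43 and 28.5 in the non-aromatic bulk, and 5.84, 13.8, 20.8 and 4.68 in Pusa 1121 against 1745, 1573, 1737 and 1549.9 in Pusa 1342. In each, the aromatic bulk lay well below Pusa 1342.

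LOC4341818 (chromosome 6) differed in that the aromatic bulk was the highest group. It read 2053, 1958, 1955 and 2006 in the aromatic against 538, 409, 377 and 372 in the non-aromatic bulk, and 6.05, 5.17, 16.8 and 6.17 in Pusa 1121 against 925, 861, 803 and 783 in Pusa 1342. LOC4330542 (chromosome 2) had this order as well, with 833, 597, 896 and 633 in the aromatic against 93.3, 80.6, 134 and 83.3 in the non-aromatic bulk, and 66.5, 63.7, 82.9 and 87.2 in Pusa 1121 against 369.7, 357, 315 and 353 in Pusa 1342. The aromatic bulk had the highest of the 4 means in 18 of the 73 probe sets of this class, and Pusa 1342 in the other 55. LOC4348060 (chromosome 10), LOC4343276 (chromosome 7) and LOC4325626 (chromosome 1) completed the first 8, with log2 ratios of 2.68, 2.18 and 2.12 in the bulks and -5.16, -4.61 and -4.71 in the parents. A second probe set of LOC4348060 had means of 2091 for the aromatic and 1990 for the non-aromatic bulk, 2750 in Pusa 1121 and 2096 in Pusa 1342, and was not reversed.

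In the class low in the aromatic bulk, LOC4342551 (chromosome 7) was the brightest of the leading genes. It read 5366, 5174, 4821 and 5342 in the aromatic against 29464, 28124, 27339.9 and 27933 in the non-aromatic bulk, and 21879.9, 20482, 21783 and 21165 in Pusa 1121 against 1630.3, 1550.3, 1698 and 1805 in Pusa 1342. The aromatic bulk stood at 17.8% of the distance from Pusa 1342 to Pusa 1121, and the non-aromatic bulk at 135%, above both parents.

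LOC4325422 (chromosome 1) read 574, 577, 510.5 and 601 in the aromatic against 3589, 3634, 3890.4 and 3943 in the non-aromatic bulk, and 5275, 5289, 5147 and 5984 in Pusa 1121 against 1697, 1834, 1529 and 1573 in Pusa 1342. Here the aromatic bulk was the lowest group, below both parents. LOC4343399 (chromosome 7) read 241, 251, 266 and 298 in the aromatic against 1372, 1457, 1547 and 1647 in the non-aromatic bulk, and 488, 520.1, 518 and 526 in Pusa 1121 against 21.1, 2.44, 22.9 and 10.1 in Pusa 1342. Pusa 1342 had the lowest mean in 42 of the 58 probe sets of this class, and the aromatic bulk in the other 16.

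The other leaders of this class are given by their group means. LOC4345356 (chromosome 8) averaged 90.0 in the aromatic against 366 in the non-aromatic bulk, and 320 in Pusa 1121 against 5.85 in Pusa 1342. LOC4340800 (chromosome 6) averaged 88.1 against 269 in the bulks and 262 against 20.1 in the parents, in the same order of groups. LOC4346051 (chromosome 8) averaged 459 against 1396 in the bulks and 413 against 90.5 in the parents, and LOC4337486 (chromosome 4) 441 against 1343 and 3983 against 46.4.

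Several transcripts were reversed on more than 1 probe set, which share sequence and are not independent. The 131 probe sets came from 122 sequence clusters of the array design, and 6 clusters held 15 of them. The pair for LOC4328677 (chromosome 2) averaged 1883 and 947 in the aromatic against 509 and 344 in the non-aromatic bulk, and 65.5 and 72.1 in Pusa 1121 against 1433 and 945 in Pusa 1342. One more probe set of the gene, of the cross-hybridising kind, was under 2-fold different in both pairs and higher in both aromatic groups, with means of 2204 for the aromatic and 1124 for the non-aromatic bulk, and 1972 in Pusa 1121 and 1295 in Pusa 1342. The pair for LOC107277838 (chromosome 1) averaged 138 and 99.5 in the aromatic against 419 and 253 in the non-aromatic bulk, and 1271 and 1151 in Pusa 1121 against 18.3 and 29.7 in Pusa 1342.

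The 2 largest clusters had no listed gene. All 4 reversed probe sets of cluster Os.9859 were high in the aromatic bulk, with log2 ratios of 1.52 to 1.94 between the bulks and -5.67 to -1.68 between the parents. The 3 of cluster OsAffx.16037 averaged 1896, 1134 and 1852 in the aromatic against 768.4, 462.5 and 852.1 in the non-aromatic bulk, and 7.72, 6.453 and 4.817 in Pusa 1121 against 2714, 1992 and 2392 in Pusa 1342. These 3 included the largest parental ratio of all members. Of single probe sets without a gene, Os.27723.1.S1_a_at led the class high in the aromatic bulk, with means of 946 in the aromatic against 85.5 in the non-aromatic bulk, and 29.9 in Pusa 1121 against 1701 in Pusa 1342. OsAffx.16228.1.S1_at led the other class, with 51.3 in the aromatic against 435 in the non-aromatic bulk, and 283 in Pusa 1121 against 45.5 in Pusa 1342.

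The 20 reversed genes that had further probe sets had 24 of them. Of these, 14 had the higher mean of each pair above 200, and 6 of the 14 had the signs of the reversed probe set in both pairs. Of the 10 dimmer ones, 7 had both signs. A reversal read from 1 probe set was therefore not seen on every probe set of its gene.

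The 63 reversed genes lay on all 12 chromosomes. Chromosome 10 held 10 of them (15.9%), against 5.02% of the measured genes and 18 of the 409 same-direction genes. Chromosome 4 held 8 (12.7%, against 8.76% of measured genes), and chromosomes 1, 6, 7 and 8 held 7 each. Chromosome 3 held 4 (6.35%, against 13.7% of measured genes). Neighbouring genes share inheritance in such lines and are not independent counts.

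A few reversed genes were close neighbours. LOC4336163 and LOC4336164 lie next to each other on chromosome 4, and LOC4336173 lies 10 genes further on. LOC4336163 read 1372, 1375, 1245 and 1276 in the aromatic against 473, 404, 393 and 370.4 in the non-aromatic bulk, and 83.3, 104, 98.0 and 30.4 in Pusa 1121 against 1984, 1721, 1937 and 1955 in Pusa 1342. LOC4336164 averaged 1721 in the aromatic against 793 in the non-aromatic bulk, and 75.9 in Pusa 1121 against 6461 in Pusa 1342. All 3 genes ran in the same direction, LOC4336173 with means of 277 against 129 in the bulks and 118 against 366 in the parents. Between the first and the last of them, 4 other measured genes were not reversed, and 0 of these 4 was 2-fold different with a mean above 200 in either pair.

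Other neighbours did not all share a direction. LOC4334898 and LOC4334900 lie 2 genes apart, elsewhere on chromosome 4. LOC4334898 was low in the aromatic bulk, with 111 against 247 in the non-aromatic bulk, and 370.3 in Pusa 1121 against 159 in Pusa 1342, opposite to LOC4334900 above. On chromosome 8 the adjacent genes LOC4345356 and LOC4345357 were both low in the aromatic bulk, LOC4345357 with 243 against 493 in the bulks and 534 against 61.7 in the parents. Both were read by cross-hybridising probe sets. LOC4343399 and LOC4343418, 19 genes apart on chromosome 7, ran opposite to each other. Of the 8 other measured genes between them, 1 in the bulks and 5 in the parents were 2-fold different with a mean above 200. LOC4340783 and LOC4340800, 22 genes apart on chromosome 6, ran in the same direction. Of 7 other measured genes between them, 1 in the bulks and 2 in the parents differed in this way. LOC107275256 and LOC4340377, 13 genes apart on chromosome 6, ran opposite to each other. Of 7 other measured genes between them, 0 differed in this way in either pair.

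**Figure D4:**
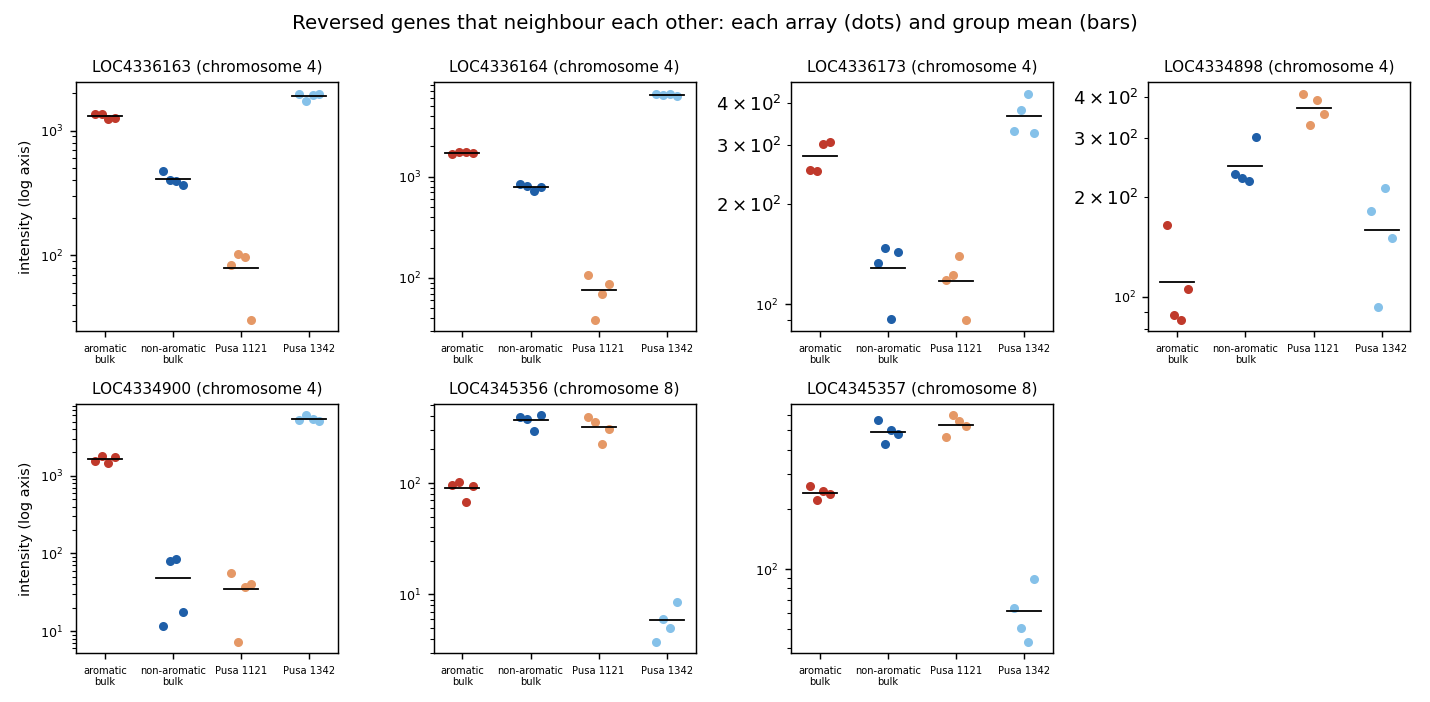
Intensity on each array (dots, log axis) and group mean (bars) in the aromatic bulk, non-aromatic bulk, Pusa 1121 and Pusa 1342 for 7 reversed genes that neighbour each other. LOC4336163, LOC4336164 and LOC4336173 are all high in the aromatic bulk and Pusa 1342, LOC4334898 and LOC4334900 run opposite to each other, and LOC4345356 and LOC4345357 are both high in the non-aromatic bulk and Pusa 1121.

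The rule did not use the comparison of both bulks with both parents, averaged on the log2(value + 1) scale. It was tested with limma across all probe sets, where 13733 passed a Benjamini-Hochberg adjusted p of 0.05 (24%), 6703 higher in the bulks (11.7%) and 7030 lower (12.3%). Of the 131 reversed probe sets, 90 passed (68.7%), 58 higher in the bulks and 32 lower, and 41 did not pass. The direction depended on the scale: of the 58 higher on the log2 scale, 16 had a lower linear mean in the bulks, and of the 32 lower 1 had a higher one. Over all 131, the linear mean was higher in the bulks for 52 and lower for 79. Members had to be bright, and among the 18922 probe sets with the higher mean of each pair above 200 the share passing was 52.3%, 26.7% higher and 25.5% lower. Among the same-direction probe sets it was 64.6%, 38.9% higher and 25.8% lower, close to the 44.3% and 24.4% of the reversed ones. These shares were not tested against each other.

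The median log2 difference was 0.245 over the 131, against -0.0247 over all probe sets and 0.0825 over the same-direction ones. It was 0.142 in the class high in the aromatic bulk, where 29 were higher in the bulks, 19 lower and 25 not passing. It was 0.456 in the class low in the aromatic bulk, where 29 were higher, 13 lower and 16 not passing. With a pseudocount of 64 in place of 1, 60 were higher and 36 lower.

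**Figure D5:**
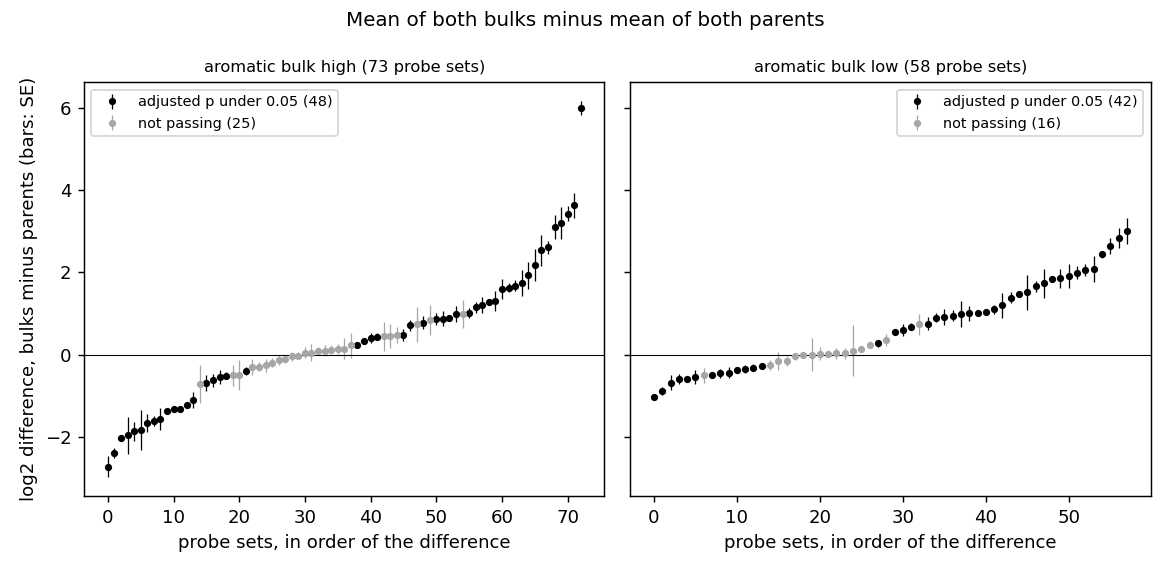
Log2 difference of the mean of both bulks minus the mean of both parents, with SE bars, for the 73 probe sets high in the aromatic bulk (left) and the 58 low in it (right), in order of the difference. Black points passed the adjusted p of 0.05 (48 and 42), and grey points did not (25 and 16).

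In 4 of the 131 probe sets all 8 bulk arrays lay above all 8 parental arrays, and in 5 they all lay below. Over all probe sets this was so for 2.35% above and 2.04% below, and over those with the higher mean of each pair above 200 for 5.69% and 4.98%. Those above were LOC4348206, FTSH6 and both probe sets of salT, and those below were LOC4349123, OsAffx.15239.1.S1_at, OsAffx.14656.1.S1_at, OsAffx.12324.1.S1_at and Os.48911.1.A1_s_at, some of them named here after their values were seen. LOC4348206 (chromosome 10) had the largest difference, 5.999 ± 0.171 (log2, SE; limma adjusted p = 4.52e-11). It read 5332, 5106, 5139 and 4876 in the aromatic bulk and 2079.9, 2070.4, 1887 and 1917 in the non-aromatic bulk, against 1.92, 1.79, 3.76 and 6.63 in Pusa 1121 and 596, 617, 545 and 636 in Pusa 1342. The salT differences were 2.44 ± 0.079 (adjusted p = 1.15e-10) and 1.83 ± 0.060 (adjusted p = 1.27e-10), and that of FTSH6 was 2.84 ± 0.251 (adjusted p = 1.45e-06). The other large increases were 3.64 in OsAffx.16037.2.S1_at (adjusted p = 9.07e-07), 3.43 in LOC4341818 (adjusted p = 1.23e-08) and 3.20 in Os.19099.1.S1_x_at (adjusted p = 3.39e-05).

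The largest decreases were in 2 probe sets with no listed gene, LOC4343418 (chromosome 7) and LOC4348034. OsAffx.15239.1.S1_at fell by 2.73 on the log2 scale (adjusted p = 2.96e-06), with means of 238 in the aromatic bulk and 105 in the non-aromatic bulk against 494 in Pusa 1121 and 1941 in Pusa 1342. OsAffx.14656.1.S1_at fell by 2.39 (adjusted p = 4.94e-09). LOC4343418 fell by 2.03 (adjusted p = 6.38e-10), with 987, 981, 906 and 866 in the aromatic bulk and 344, 315, 351 and 284 in the non-aromatic bulk against 914, 1145, 1293 and 956 in Pusa 1121 and 4946, 4720.1, 4654 and 4623 in Pusa 1342. LOC4348034 fell by 1.96 (adjusted p = 0.00544), a call lost without replicate 1, 2 or 3 (adjusted p = 0.0519, 0.0785 and 0.0658).

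Among the named genes, 10 of 12 passed in the comparison of the bulks with the parents. The share passing was 68.7% over the 131 members and 24% over all probe sets. It was 52.3% over probe sets with the higher mean of each pair above 200. PIP2-2 was higher in the bulks by 2.08 ± 0.324 (log2, SE; limma adjusted p = 0.00026), BURP16 by 1.73 ± 0.343 (adjusted p = 0.00181), MAN7 by 0.91 ± 0.184 (adjusted p = 0.00202) and Cht6 by 0.75 ± 0.154 (adjusted p = 0.00231). UGE-4 was higher by 0.68 ± 0.078 (adjusted p = 1.82e-05) and Cht2 by 0.56 ± 0.050 (adjusted p = 1.6e-06). JAZ11 was higher by 0.23 ± 0.066 (adjusted p = 0.0209), which did not pass without replicate 1, 3 or 4 (adjusted p = 0.113, 0.153 and 0.133). BURP2 was the 1 named gene lower in the bulks, by 1.61 on the log2 scale (adjusted p = 4.57e-07), although its linear mean was higher in the bulks (13140, against 11190 in the parents). JAMYB (-0.30, adjusted p = 0.322) and CML16 (0.02, adjusted p = 0.912) did not pass.

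The leading genes with locus numbers went both ways. LOC4343399 was higher in the bulks by 3.01 ± 0.315 (limma adjusted p = 7.35e-06), LOC4346051 by 2.06 (adjusted p = 3.27e-07), LOC4345356 by 1.99 (adjusted p = 5.59e-07), LOC4342551 by 1.02 (adjusted p = 5.8e-09) and LOC4330542 by 0.71 (adjusted p = 0.00079). LOC4325422 gave -1.04 ± 0.061 (adjusted p = 2.8e-08), and LOC4348060 gave -1.12 (adjusted p = 0.000656). LOC4329821 gave -1.84 ± 0.484 (adjusted p = 0.0122), which did not pass without replicate 1, 3 or 4 (adjusted p = 0.0810, 0.0828 and 0.0824). LOC4340800 was higher by 1.196 (adjusted p = 0.00828; without replicate 1 or 3, 0.0721 and 0.0685), and LOC4337486 by 0.99 (adjusted p = 0.0328; without replicate 1, 2 or 3, 0.196, 0.053 and 0.0854). The linear mean of LOC4337486 was lower in the bulks (892.0, against 2015 in the parents). LOC4334900, LOC4343276 and LOC4325626 gave adjusted p of 0.309, 0.113 and 0.0521.

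The gene lists to which members belong were read in the same comparison. Of the 36 genes of jasmonate repressors and oxylipin synthesis, 10 were higher in the bulks, 9 lower and 17 did not pass, with a median of 0.203. Of the 15 defence genes, 6 were higher, 2 lower and 7 did not pass, with a median of 0.558. Of the 8 water-stress genes 1 was higher, 1 lower and 6 did not pass, and of the 30 aquaporin genes 8 were higher, 7 lower and 15 did not pass. Over all 17905 measured genes, 3712 were higher and 3447 lower, with a median of -0.0095.

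Several lists held 0 reversed genes. These were the 45 heat shock genes, 25 clock and flowering genes, 22 terpene genes, 29 cytochrome P450 genes, 6 WRKY genes, 11 photosynthesis genes, 22 ribosomal genes, 29 expansin genes, 105 transporter genes, 59 auxin genes, 42 cell cycle genes and the 10 genes of scent, amine and proline metabolism. Reversed genes were 63 of the 17905 measured.

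At the 2-fold threshold the members just inside were Os.6227.2.S1_x_at, Os.17055.2.A1_a_at and LOC4327574, with a smaller ratio of 2.004, 2.006 and 2.006. Just outside lay BGLU10, OsAffx.19953.1.S1_x_at and OsAffx.24595.2.S1_x_at, with 2.00 (just below the threshold before rounding), 1.999 and 1.998. BGLU10, a beta-glucosidase gene, averaged 215.9 in the aromatic against 102.8 in the non-aromatic bulk, and 214.7 in Pusa 1121 against 429.4 in Pusa 1342.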

How the data were processed

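Leaf RNA of 16 samples in 4 groups was extracted with a Qiagen kit, biotin-labelled and hybridised to Affymetrix rice arrays, per the labels' protocols. GCOS 1.2 and RMA appear in the submitters' processing notes. Their settings and the build are not given in these sources. The deposited intensity values (0.201 to 45123) were read as linear and as made equal in distribution by the authors, from the table itself. The number of arrays limits the precision. Of 57381 probe sets, 187 controls were left out.

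Group means of linear values chose the members. The only test was limma 3.58.1 under R 4.3.3, with lmFit then eBayes on log2(value + 1), with 4 group means, two-sided, Benjamini-Hochberg over 57194 probe sets, threshold 0.05, for the bulks minus the parents. Residual degrees of freedom were 12 and the median residual SD 0.691 (log2), 0.196 in the brighter and 1.09 in the dimmer part of the probe sets. Members and gene lists were chosen with earlier results of these data known.

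Genes named were the 8 with 1 gene leading each direction by the smaller log2 ratio, those with a published name or in a gene list, those at the 2-fold threshold, those with several member probe sets, up to 2 probe sets without a gene per direction, and the 4 largest differences each way between bulks and parents. Neighbouring genes, other probe sets and full clusters were chosen after their values were seen. Genes were named by the platform annotation and renewed with the RefSeq table for ASM3414082v1, from which only symbols, chromosomes and the order of genes were taken. Alternatives were other folds, levels, summaries, pseudocounts, filters, variance models, a replicate block and leaving out each replicate.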

Additional observations from a re-analysis of the deposited data

Results flagged for a closer look

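Of 180 groups of 4 arrays among the named probe sets, 9 held 1 array far from the other 3 by Dixon's criterion, and chance flags about 1 in 20 groups. In the non-aromatic bulk these were LOC4329821 at 3.13 in replicate 1 (others 19.0 to 23.0), LOC4348034 at 28.5 in replicate 4 (others 1.90 to 2.43), LOC4346051 at 1316 in replicate 4 (others 1413 to 1431), Cht6 at 1412 in replicate 4 (others 1165 to 1188) and OsAffx.15239.1.S1_at at 32.3 in replicate 3 (others 116 to 149). In Pusa 1121 they were LOC4348060 at 42.7 in replicate 2 (others 87.6 to 100.03), LOC4341818 at 16.8 in replicate 3 (others 5.17 to 6.17) and the second salT probe set (Os.4671.1.S1_a_at) at 1144 in replicate 2 (others 1038 to 1052). In the aromatic bulk it was the first salT probe set (Os.57456.1.S1_x_at) at 735 in replicate 2 (others 594 to 614).

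All 131 reversed probe sets moved one way in the bulks and the opposite way in the parents on every array. This difference was not tested, because the members were chosen for it.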

How the results depend on the processing

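The number of reversed probe sets depended on the thresholds: it was 491 at 1.5-fold, 35 at 3-fold and 72 with a level above 500. Of these, 340 (178 higher in the bulks, 162 lower), 25 (17 and 8) and 56 (40 and 16) passed in the bulks minus parents comparison. With a level above 100, group medians, geometric means or no requirement of non-overlap, the number stayed between 134 and 181, and without a replicate between 132 and 137, of which 114 to 121 were among the 131. Members passing in the bulks minus parents comparison were 90 as reported, 88 with the replicate block (57 higher, 31 lower), 76 to 81 without a replicate, and up to 97 under the other fits. Over all probe sets, 12927 passed with the replicate block and 10292 to 10788 without a replicate. Same-numbered arrays did not deviate together over all probe sets (correlations of -0.0071 to 0.0136 in 24 pairs, 0 of them over 0.1). No pairing by number was seen, but the noisier dim probe sets weigh in these correlations. They cannot exclude a pairing in the brighter ones. Of 45 named probe sets, 35 kept their side of the threshold under every alternative run, 10 did not under at least 1, and 0 changed sign while passing. The cause of these moves was not tested. Dim values limit what can be read: a ratio against a mean under 50 rests on intensities whose median residual SD (log2) was 1.09 for the dimmer probe sets.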
